A study of Mus musculus with 7 samples.

Results

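The genes described here are 9 regulators and markers of retinal ganglion cell differentiation: the SoxC transcription factors Sox4, Sox11 and Sox12, the zinc finger factor Klf7, the POU factors Pou4f1 and Pou4f2, the homeobox factors Dlx1 and Dlx2, and the growth cone protein Gap43. They were chosen by name, and every Argonaute crosslink that GENCODE mouse release M21 (mm10) assigns to them on the same strand was taken. Of the 9 genes, 5 held a row in the crosslink table, with 31 of its 14054 positions: Sox4 held 12, Sox11 10, Klf7 4, Gap43 4 and Pou4f1 1. Sox12, Pou4f2, Dlx1 and Dlx2 held none. None of the 404 entries of the miR-216 site table lay in any of the 9 genes.

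The positions come from PAR-CLIP, an assay in which 4-thiouridine is built into RNA and 365 nm light ties it to the protein that touches it. CD-1 mouse retinas taken at postnatal day 0, with no genetic change named, were kept whole in culture for 24 h with 0.1 mM 4-thiouridine, and each library came from 6 pooled retinas. The 5 libraries of the Argonaute group were made with antibody 2A8, and 2 control libraries with an IgG1 antibody; values of the control libraries were not analysed here. The table gives no reads per position, only the number of Argonaute libraries, from 2 to 5, that hold it, so no value has a replicate error, the read depth is unknown and no difference was tested. A whole retina mixes all its cell types, so fewer cells of a type and less RNA per cell cannot be told apart, and a gene without a row may still be bound.

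Ganglion cells are the neurons whose axons form the optic nerve, and they are the first neurons born in the retina. SoxC factors act after the proneural factor Atoh7 and are needed for ganglion cells to form; Sox4 and Sox11 share much of this work. Pou4f1 and Pou4f2 then drive ganglion cell identity, survival and axon growth, Dlx1 and Dlx2 support the same lineage upstream of Pou4f2, and Klf7 and Gap43 belong to the axon growth programme. MicroRNAs guide Argonaute to messenger RNAs mainly by pairing bases 2 to 8, the seed, with the 3′ UTR, and the RNA is then silenced. In PAR-CLIP the crosslinked base often lies next to the paired stretch, so the bases just after a crosslink can be read for a seed match.

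The microRNAs whose full seed match began just after a crosslink in these genes, and miR-9, which had a shorter match, read as follows in RefSeq (GRCm38.p6), with the seed in capitals. The 7 seeds are all different.
miR-92a-3p: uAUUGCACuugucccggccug
miR-17-5p: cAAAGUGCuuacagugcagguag
miR-138-5p: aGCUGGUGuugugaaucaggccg
miR-101a-3p: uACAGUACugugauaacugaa
miR-181a-5p: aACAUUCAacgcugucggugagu
miR-153-3p: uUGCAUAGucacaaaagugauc
miR-9-5p: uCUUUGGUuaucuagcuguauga

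The sites themselves are shown as 30 nt of the spliced transcript, all in 3′ UTRs and all on the minus strand of mm10. Each begins 10 nt before the crosslinked T, which is the eleventh base, and capitals mark the seed match. They are shown because they pair each crosslink with the microRNA family it could belong to. A 7mer-m8 pairs with bases 2 to 8, and an 8mer adds an A after it.
Sox4 chr13:28949128-28949157, miR-25/92 8mer: ccatccatcctGTGCAATAtgccgtgtaga
Sox4 chr13:28949533-28949562, miR-17/20/93 7mer-m8: acatcttttttGCACTTTtttttataaagc
Sox4 chr13:28950416-28950445, miR-138 7mer-m8: aacgaaccgatCACCAGCtccttttcattt
Sox11 chr12:27339966-27339995, miR-101 8mer: taagactgtatGTACTGTAtcatagtagga
Sox11 chr12:27338391-27338420, miR-181 7mer-m8: gtgaactctatTGAATGTctaatacacaag
Klf7 chr1:64029511-64029540, miR-153 8mer: ttgtaagatatCTATGCAAaaatgttatgt
Pou4f1 chr14:104463856-104463885, miR-153 7mer-m8: cacaaaacattCTATGCAtttgaaactgag

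In each of these 7 windows the match began 1 nt after the crosslinked T. A shorter kind of match, the 7mer-A1 (bases 2 to 7 and an A), stood 2 nt after the 5-library crosslink of Klf7. In Sox11 a miR-153 7mer ended 1 nt before the crosslinked base, on the other side.
Klf7 chr1:64033314-64033343, miR-9 7mer-A1: atctgatttattCCAAAGAtttaaaagtgg
Sox11 chr12:27340590-27340619, miR-153 7mer before the crosslink: cttCTATGCAtccgatttcttaaactgcag

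The remaining positions found in 4 or 5 libraries had no 7mer-m8 or 7mer-A1 of the 37 families searched just after the crosslink, and are shown without capitals.
Sox4 chr13:28949963-28949992, 5 libraries: tgtagacttttgacacttttaaaaaacaaa
Sox4 chr13:28949104-28949133, 4 libraries: tgtagaatatttgtcttaaaattcaaggcc
Sox11 chr12:27338423-27338452, 4 libraries: tttcgacgaatgcattgtgaagaccattcc

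Sox4, the SoxC factor with the most crosslinks, is a single-exon gene (ENSMUSG00000076431.4, chromosome 13, 28948919 to 28953713, minus strand). All 12 of its positions lay in its 3′ UTR of 2780 nt, which gave 4.32 positions per kb of UTR, and 80 genes of the 4948 with a crosslink held more positions. The median over the 3343 transcripts with a 3′ UTR position was 0.824 per kb. Positions rather than reads are counted, so this density also follows how much of the RNA was recovered, which was not measured.

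The 12 Sox4 positions lay 395, 1264, 1359, 1717, 2092, 2116, 2147, 2270, 2552, 2576, 2685 and 2741 nt from the stop codon. Those at 1717 and 2552 nt were found in all 5 libraries, that at 2576 nt in 4, and those at 2092 and 2147 nt in 3. The other 7 were found in 2. The 5 positions of Sox4 in 3 or more libraries all lay at 1717 nt or later, and 8 of the 12 (66.7%, exact 95% interval 34.9 to 90.1) lay in the stretch beyond 75% of the UTR's length, which holds 26.1% of all 7327 3′ UTR positions in the table.

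The Sox4 crosslink at 28949147, 2552 nt into the UTR, was followed by an 8mer for miR-25/92, the family that includes miR-92a of the cluster that also encodes miR-17. It was 1 of 14 exonic positions in the whole table that were found in 5 libraries and had a miR-25/92 7mer or 8mer starting 0 to 3 nt after them, and 12 of those 14 had an 8mer. The crosslink 24 nt further on, at 28949123, was found in 4 libraries and had no family match just after it.

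The Sox4 crosslink at 28949552, 2147 nt into the UTR and in 3 libraries, was followed by a miR-17/20/93 7mer. Matches of 2 further families ran across the same crosslinked T: a miR-19 7mer began 2 nt before it and a miR-130 7mer began 1 nt before it. The 3 matches share letters, so the position cannot be given to 1 family from sequence. The position at 28949583, in 2 libraries, lay 31 nt before it in the transcript, and that at 28949607, in 3 libraries, lay 24 nt further back. The stretch between the latter crosslinks held a miR-129 7mer and a miR-204 7mer that overlap each other.

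The Sox4 crosslink at 28950435, in 2 libraries, was followed by a miR-138 7mer. Only 1 other exonic position in the table had a miR-138 7mer starting 0 to 3 nt after it. The Sox4 position in 5 libraries at 28949982 lay in a window with 82.9% A or T, the highest share among the member positions, and no 7mer-m8 or 7mer-A1 of the families searched stood anywhere in the 41 nt around it.

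Sox11 is also a single-exon gene (ENSMUSG00000063632.6, chromosome 12, 27334264 to 27342574, minus strand), with a 3′ UTR of 6957 nt. All 10 of its positions lay there, at 612, 783, 901, 1236, 2779, 2811, 4414, 5079, 5897 and 6009 nt from the stop codon. The position at 2779 nt was found in 4 libraries, that at 1236 nt in 3 and the other 8 in 2, and none was found in 5. They spread along the UTR at 1.44 per kb, with 2 of 10 beyond 75% of its length.

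The Sox11 position in 3 libraries, at 27339985, was followed by an 8mer for miR-101. Over the whole table, 77 positions in 76 genes had a miR-101 7mer or 8mer starting 0 to 3 nt after the crosslink, 74 of them 1 nt after it as in Sox11. A miR-181 7mer followed the position at 27338410, which was found in 2 libraries and lay 32 nt after the 4-library position at 27338442. Near 2 more Sox11 positions, a miR-204 8mer began 13 nt after 27340320 and a miR-125 7mer began 6 nt after 27335324, outside the distance used to link a match to a crosslink.

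**Figure D1:**
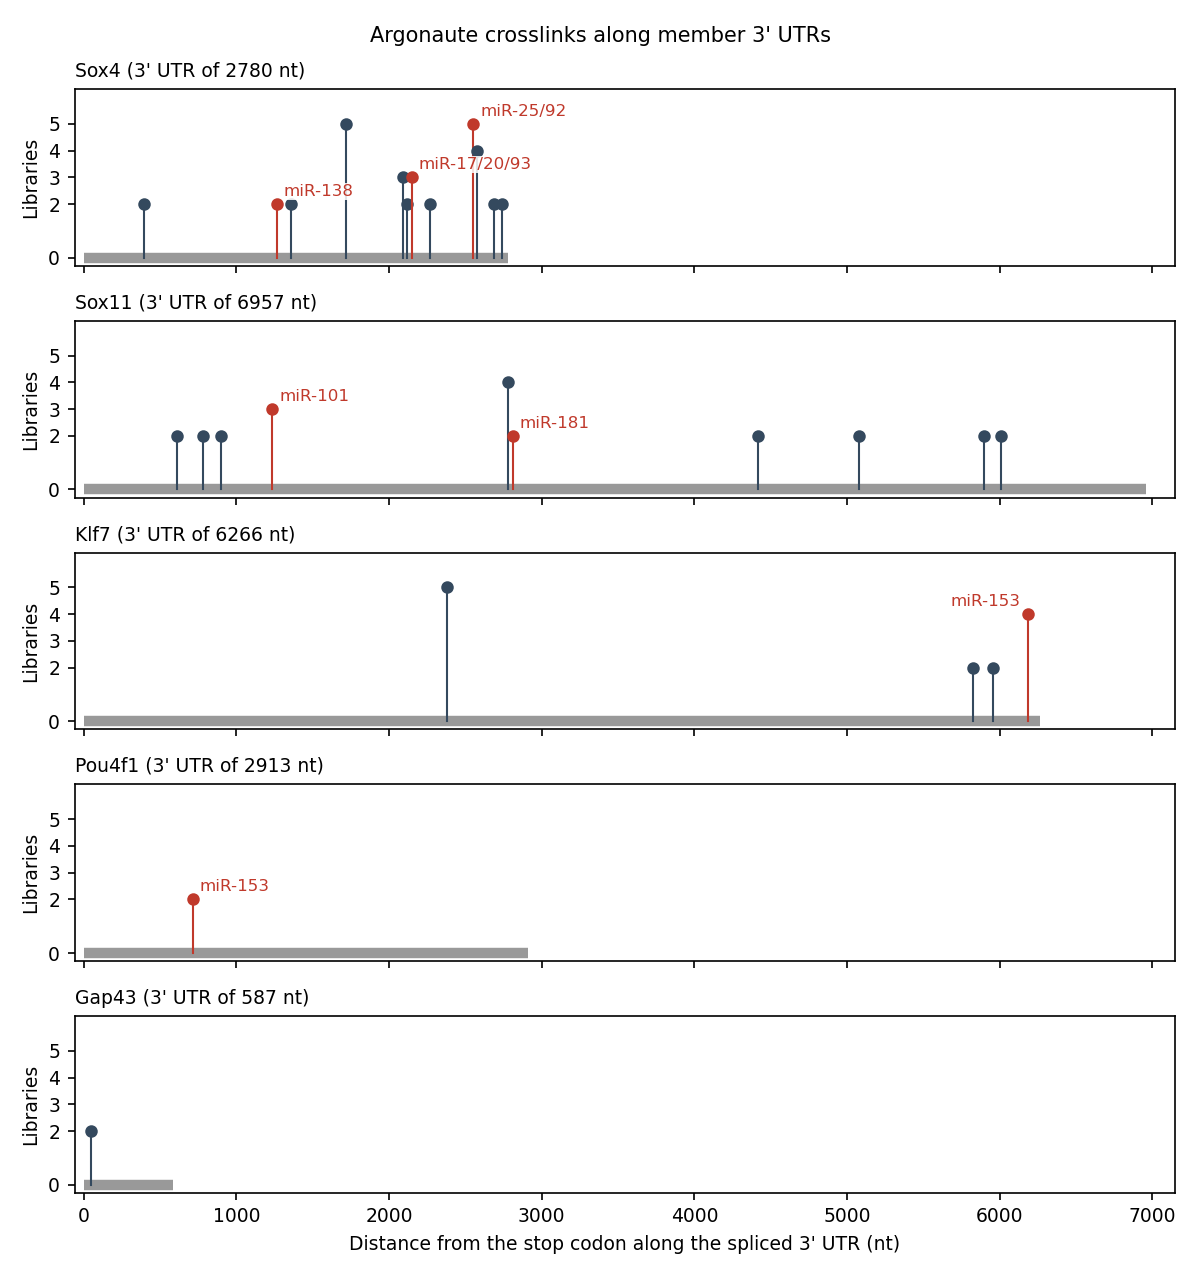
Crosslinks along the 3′ UTRs of the 5 genes with one; the x axis is the distance from the stop codon in nt, the y axis is the number of Argonaute libraries, grey bars are the UTRs and red marks positions with a family match 0 to 3 nt after the crosslink. Sox4 positions gather late in the UTR, with 2 in 5 libraries, while those of Sox11 spread over 6957 nt.

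Klf7, a Krüppel-like factor that promotes axon growth (ENSMUSG00000025959.13, chromosome 1, 64029447 to 64122282, minus strand), held 4 positions, all in exon 4 of 4 and in the long 3′ UTR of 6266 nt. The position at 2380 nt was found in 5 libraries, that at 6183 nt in 4 and those at 5824 and 5957 nt in 2. The last 3 lay 442, 309 and 83 nt from the annotated end of the UTR. A shorter Klf7 isoform, ENSMUST00000055001.9, has a 3′ UTR of 384 nt, which holds none of the 4.

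The Klf7 position 83 nt from the end, at 64029530, was followed by an 8mer for miR-153. Over the table, 47 positions in 47 genes had a miR-153 match there, 22 of them 8mers and 7 in 4 or more libraries. The Klf7 position in 5 libraries, at 64033333, had the miR-9 7mer-A1 and no 7mer-m8. Klf7 also held a miR-153 8mer at 1760 nt, 620 nt from its nearest crosslink.

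Pou4f1, also called Brn3a, marks most ganglion cells (ENSMUSG00000048349.9, chromosome 14, 104461676 to 104467999, minus strand). Its only position, at 104463875, lay in exon 3 of 3, 714 nt into a 3′ UTR of 2913 nt, and was found in 2 libraries. A miR-153 7mer followed it. The 7mer CTATGCA thus stood beside a crosslink in Klf7, Pou4f1 and Sox11, after the crosslink in the first 2 genes and before it in Sox11. A 7mer ended within 3 nt before the crosslink at 2.32% of exonic positions and at 1 of the 30 member positions, that of Sox11.

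Gap43, a growth cone protein of extending axons (ENSMUSG00000047261.9, chromosome 16, 42248442 to 42340651, minus strand), held 4 positions, each in 2 libraries. Only 1 of them lay in the 3′ UTR. The position at 42340489 fell in codon 5 in exon 1 of 3, that at 42292338 in codon 20 in exon 2, that at 42312943 in an intron, and that at 42248983 in the 3′ UTR, 46 nt after the stop codon of a UTR of 587 nt. No family match stood just after the 3 exonic ones. The 3 positions outside 3′ UTRs were the only ones among the 31.

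Sox12, the remaining SoxC factor, has a 3′ UTR of 3143 nt, longer than that of Sox4, and held no row. The 3′ UTRs of the others without a row were 1727 nt in Pou4f2, 1462 nt in Dlx1 and 1112 nt in Dlx2. Among protein-coding genes, 21.6% held at least 1 position, beside 5 of the 9 members. The members were picked by name with earlier results of these data known, so their count is a description.

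**Figure D2:**
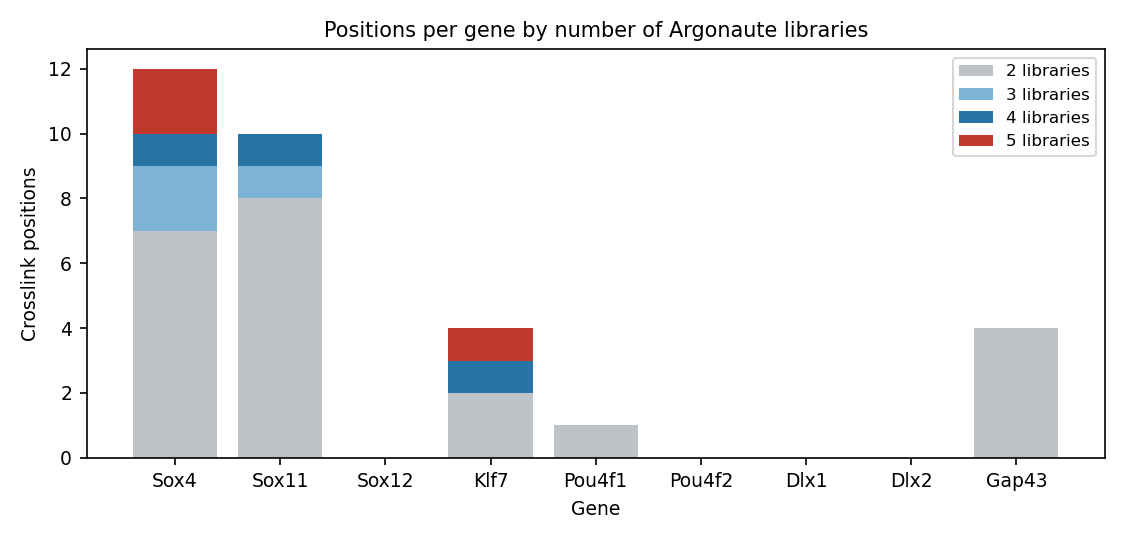
Crosslink positions in each of the 9 genes (y axis, count), coloured by the number of Argonaute libraries that hold them. Sox4 and Sox11 hold 22 of the 31 positions, and only Sox4 and Klf7 hold positions in 5 libraries.

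Across the members, 28 of 31 positions lay in 3′ UTRs (90.3%, exact 95% interval 74.2 to 98.0), where 52.1% of all positions lay. Coding sequence held 2 (6.45%, against 20.9%) and introns 1 (3.23%, against 17.9%). Sox4 and Sox11 have no introns, and they supplied 22 of the 31 positions (71.0%).

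Positions found in 3 or more libraries made up 9 of 31 (29%, 14.2 to 48.0), beside 25.6% of all positions and 32.9% of all 3′ UTR positions. Those in 4 or more libraries were 6 of 31 (19.4%, 7.45 to 37.5), beside 9.81% of all positions and 13.9% of those in 3′ UTRs. Those in 5 libraries were 3 of 31 (9.68%, 2.04 to 25.8), beside 3.47% and 5.13%. The intervals cover counting error only and take positions as independent, which positions of 1 gene are not, so these shares are given side by side with no reading of the difference. At the level of genes, Sox4 was 1 of 45 genes (0.909%) with 2 or more positions in all 5 libraries, and Sox4 and Klf7 were among the 415 (8.39%) with at least 1.

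A full seed match of the 37 families started 0 to 3 nt after the crosslink at 7 of the 30 exonic member positions (23.3%, 9.93 to 42.3), beside 24.6% of all 10933 exonic positions and 27.7% of those in 3′ UTRs. The matches were 3 8mers and 4 7mers, from 6 families, and only miR-153 occurred more than once. Among member positions in 3 or more libraries, 4 of 9 had a match (44.4%, 13.7 to 78.8), beside 37.9% in the table, and among those in 2 libraries 3 of 21 had one (14.3%, 3.05 to 36.3), beside 19%. The match began 1 nt after the crosslink in 7 of 7 cases; over the table, 1 nt was also the most frequent start, with 2056 matches, followed by 496 at the crosslinked base itself. miR-124, the miR-1 family, miR-133 and miR-122 were not searched, since no sequence was at hand for them, so a position without a match may still hold 1 of theirs.

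**Figure D3:**
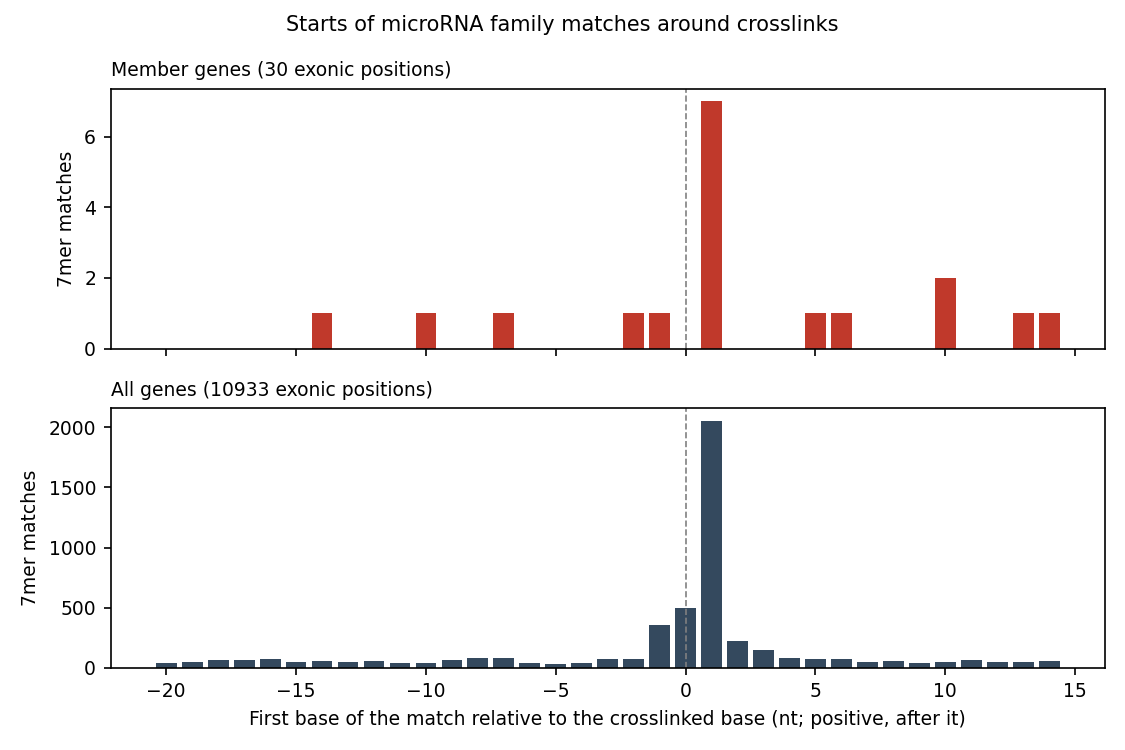
Starts of family 7mer matches relative to the crosslinked base (x axis, nt) for the 30 exonic member positions (top) and all 10933 exonic positions (bottom); the y axes count matches and differ in scale. In both panels the highest bar is 1 nt after the crosslink, with 7 and 2056 matches.

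Most seed matches in these UTRs had no crosslink beside them. The 5 crosslinked members together held 73 family 7mers in their 3′ UTRs, and 7 of these (9.59%) started 0 to 3 nt after a crosslink, beside 6.55% of 33803 matches over all transcripts with a 3′ UTR position. In Sox4 it was 3 of 16 matches, in Sox11 2 of 23, in Klf7 1 of 19, in Pou4f1 1 of 10 and in Gap43 0 of 5. The 4 members without a row held 37 matches, among them 17 in Sox12, 8 in Pou4f2, 7 in Dlx1 and 5 in Dlx2. Sox11 held a miR-25/92 8mer at 1376 nt, 140 nt from the nearest crosslink, while the miR-25/92 8mer of Sox4 had its crosslink in 5 libraries.

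**Figure D4:**
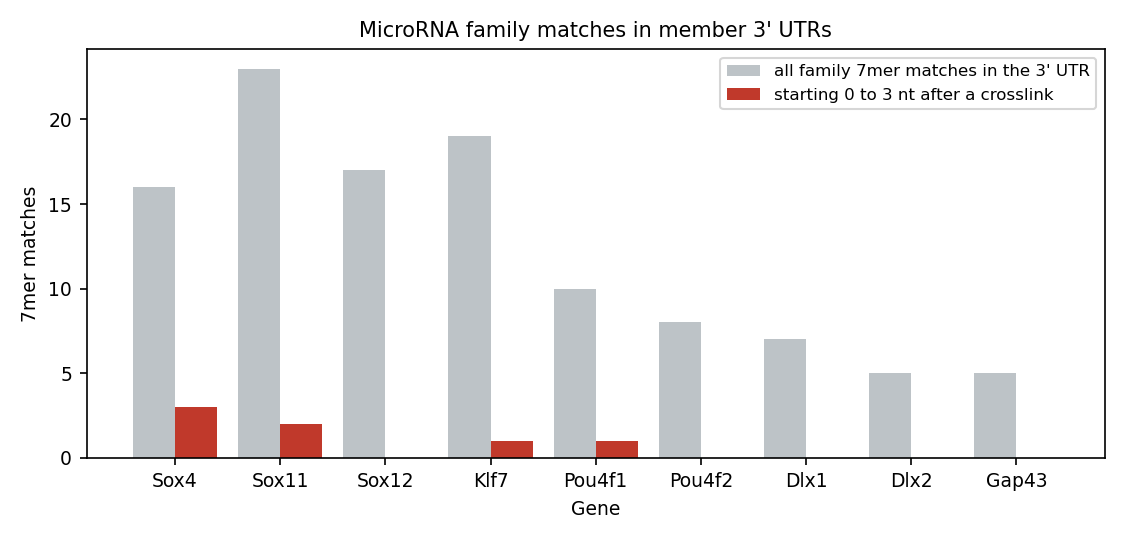
Family 7mer matches in the 3′ UTR of each gene (grey bars, count) and those starting 0 to 3 nt after a crosslink (red bars). Sox11 holds the most matches, 23, and Sox4 the most with a crosslink, 3.

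The study was about miR-216b, so its matches were read in the members as well. Full 7mers to miR-216a or miR-216b numbered 9 in the 3′ UTRs of 6 members: 4 in Sox11 and 1 each in Sox4, Sox12, Pou4f1, Pou4f2 and Dlx2. That of Sox12 was an 8mer to miR-216a and that of Dlx2 an 8mer to miR-216b. None of the 9 started 0 to 3 nt after a crosslink. Those of Sox12, Pou4f2 and Dlx2 could not, since these genes held no crosslink. The closest of the others, in Sox11 at 1153 nt, was 83 nt from a crosslink. Over all transcripts with a 3′ UTR position, 17 of 1702 such matches (0.999%) started 0 to 3 nt after one. At so low a share, the absence among these few member matches cannot be read as a difference. No 6mer, offset 6mer or 7mer of either microRNA lay in the 41 nt around any of the 30 exonic member positions, beside 3.12% of all exonic positions. Of the genes with a crosslink, 6.85% had an entry in the site table, and of the 5 members with a crosslink 0 had one. Over all 9 members, counting Sox12, Pou4f2, Dlx1 and Dlx2 without a crosslink, it was also 0 (exact 95% interval 0 to 33.6%).

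Where the positions lay along the UTR was read against the whole table. The median distance from the stop codon was 2325 nt (46 to 6183) over 28 positions, beside 962 nt over all 7327, and the median place along the UTR was 68.2% of its length, beside 46.2%. The UTRs of 4 of the 5 genes, Sox4, Sox11, Klf7 and Pou4f1, are longer than the median of 2124 nt among crosslinked UTRs, and they hold 27 of the 28 positions. That median counts each transcript once. The share of all 3′ UTR positions in UTRs above it is not given here, so 27 of 28 is a description only. Of the 23 pairs of neighbouring positions in these UTRs, 4 lay within 40 nt of each other, 3 in Sox4 and 1 in Sox11. The same count over all genes is not given here, so no closeness particular to the members is read from it. The share of A and T in the 41 nt around a crosslink had a median of 62.2% in the members (34.1 to 82.9) and of 61.0% over all exonic positions. The Pumilio motif TGTANATA, searched on the transcript strand only, lay in 1 member window, that of Sox4 39 nt from the end of its UTR, beside 1.91% of all windows. The motif ATTTA, found in AU-rich elements, lay in 3 of 30 windows (10%), beside 7.33%; these were the windows of the Klf7 position in 5 libraries, of a Sox4 position in 5 libraries and of a Sox4 position in 2.

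Further ganglion cell and axon growth genes, and the other genes of the Sox, Klf and Dlx families, were counted from lists. Their shares are to be read beside the 21.6% of all protein-coding genes with a position. That share covers all 21992 such genes, whether or not the retina expresses them, and expression was not measured. The lists were chosen with earlier results of these data known, so a higher share on a list is a description. Of 31 further ganglion cell genes, 17 (54.8%) held a position, with a median of 1 position per gene, and 2, Onecut2 and Zic2, held one in 5 libraries. Onecut2, a factor of horizontal and ganglion cells, held 24 positions, of which 23 lay in its 3′ UTR; Nefl, the light neurofilament, held 6, Ebf3, a helix-loop-helix factor, 5, and Dcx, a microtubule protein of young neurons, 4. Atoh7, which acts ahead of the SoxC factors, held 1 position in 2 libraries, as did the LIM factor Isl1, while Pou4f3 held none. In the Sox family outside SoxC, 4 of 16 genes (25%) held a position, a share near that of all protein-coding genes: Sox9 with 3, Sox2 and Sox8 with 2 each and Sox6 with 1, all in 3′ UTRs. None of these 4 reached 4 libraries.

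In the Klf family, 7 of the 16 genes other than Klf7 (43.8%) held a position, with a median of 3. Klf13 held 7, Klf12 and Klf9 4 each and Klf10 3, and Klf13 and Klf10 had positions in 5 libraries. Klf9, which restrains axon growth, had let-7 and miR-17/20/93 matches just after crosslinks. The other Dlx genes, Dlx3 to Dlx6, held no position, as did Dlx1 and Dlx2. Of 18 axon growth genes listed beside Gap43, 16 (88.9%) held a position with a median of 3, led by Map1b with 34, Ncam1 with 31, Marcks with 20 and Rtn4 with 8. Map1b, Marcks and L1cam were the 3 with an entry in the miR-216 table, which 6.85% of all genes with a crosslink had. On the ganglion cell list 1 gene had such an entry, and on the Sox, Klf and Dlx family lists 0 had one.

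Markers of other cells in the explant were counted the same way. Their counts too stand beside the 21.6% of all protein-coding genes with a position. Lists of 4 or 5 genes are too short to show that a cell type was absent or unbound. None of 4 astrocyte, 5 pigment epithelium or 4 microglia markers held a position, and of 4 vessel markers only Kdr did, with 5. Of amacrine genes 3 of 5 did, Meis2 with 12 and Tfap2a and Tfap2b with 5 each. Of photoreceptor genes 2 of 5 did, Otx2 with 6 and Crx with 2. Sox4, Sox11 and Klf7 are not restricted to ganglion cells, so the cell type in which these RNAs were bound was not tested.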

How the data were processed

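The authors deposited 2 BED tables on mm10. Per the file headers, the score of the crosslink table is the number of Argonaute libraries, from 2 to 5, that contain a position; it is not a read count. The miR-216 site table has no header, and its deposited score also runs from 2 to 5. CASAVA 1.8.2, STAR and bedtools were used per the submitters' processing notes; the crosslink caller is not given in the sources used here. Both tables pool the 5 Argonaute libraries, and no column per library was used.

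Each position was annotated on its own strand with GENCODE M21 with 3′ UTR taken before coding sequence, then 5′ UTR, then noncoding exon, then intron; coding classes were read from protein-coding transcripts only. Sequence came from the spliced GENCODE transcripts; all 10989 exonic positions with a base read fell on T. The 10933 with 20 nt on either side were searched for 7mer-m8 matches, whose seeds were taken from the RefSeq microRNA table (GRCm38.p6); 37 of 41 listed families had a sequence there. A match counted when it started 0 to 3 nt after the crosslink. In simulated windows the search found 2000 of 2000 planted 7mers. The transcript with most of a gene's positions set the UTR coordinates. Intervals are exact 95% Clopper-Pearson intervals for counting error only, and positions in 1 gene are not independent. The members and lists were chosen with earlier results of these data known. Named genes are the 9 members and up to 4 genes per list with the most positions; Atoh7, Isl1, Pou4f3, Zic2, L1cam and Dlx3 to Dlx6 are named besides. The counts of 1 list of marker genes are not reported here. Analyses ran in Python 3.11.15 with scipy 1.17.1. The alternatives tried are described in the closing section.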

Additional observations from a re-analysis of the deposited data

How the results depend on the processing

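With only positions in 3 or more libraries, 9 of the 31 member positions were left, of which 100% lay in 3′ UTRs and 44.4% had a family match just after the crosslink (37.9% in the table). Putting coding sequence first changed none of the values it was run on. Merging within 20 nt and taking the longest 3′ UTR could change nothing, since 0 neighbouring 3′ UTR positions lay that close and the transcripts used already had the longest 3′ UTR, so neither shows stability. The share with a match, 23.3% as reported, was 43.3% anywhere within 20 nt (37.1% of all exonic positions), 50.0% with all mature mouse microRNAs (54.3%), and 3.33% in the mirror window before the crosslink (2.32%). With 8mers only the share was 10% (13.2% of all exonic positions), and with 7mer-A1 matches counted as well 26.7% (32.8%). With starts from 1 nt before it was 23.3% (26.4%), and with starts 1 to 10 nt after 33.3% (24.5%). The interval of the reported share was 9.93 to 42.3%. The shares in 3 or more libraries, anywhere within 20 nt, with all mature microRNAs and in the mirror window lay outside it. Those with 8mers only, with 7mer-A1 matches added, and with starts from 1 nt before or 1 to 10 nt after lay within it. That interval covers counting error only and does not measure a change of definition on the same positions, so this does not show stability. The members thus stood below the table in some settings and above it in others. They were below it as reported (23.3% and 24.6%), with 8mers only and with 7mer-A1 matches counted as well. They were also below it with starts from 1 nt before and with all mature microRNAs. They were above it in 3 or more libraries, with starts 1 to 10 nt after, anywhere within 20 nt and in the mirror window. No direction is read from these gaps. The count of miR-216 sites was 0 from the site table and 0 from sequence within 20 nt of the 30 exonic member positions. The 9 full miR-216a or miR-216b 7mers of member 3′ UTRs lay outside these windows. No paired analysis was possible because neither table keeps values per library, so leaving out single libraries was not run. With 31 positions in 5 genes, 22 of them from Sox4 and Sox11, shares are known only within wide intervals.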
